A study of Mus musculus with 2 samples.

Results

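The 10 genes described here are a set of inflammatory and growth-factor ligands with the feedback genes of the transcription factor NF-κB, taken by symbol from the 32285 genes of a single-cell RNA sequencing study of mouse cortex. They are Tnf, Il1a, Il1rn, Il6, Tgfb1, Csf1, Il34, Nfkbia, Tnfaip3 and Nfkbiz, and each was found once in both gene lists. The study compared a Fam69c KO library with a Fam69c WT library, each made from dissociated cortex of male mice aged 4 months. Fam69c belongs to a family of kinase-like proteins of the secretory pathway. Animals were pooled by genotype, and cells were stained with 7-AAD, a dye that enters dying cells, and sorted before 10x Genomics 3′ capture. The strain, the deleted part of the gene and the cells in which it was deleted are not given in the sources used here. With 1 library per genotype, genotype and pool cannot be told apart, no test was possible, and all 95% intervals cover counting error only.

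NF-κB is held in the cytoplasm by inhibitor proteins until signals such as tumor necrosis factor or interleukin-1 lead to their degradation. The freed factor enters the nucleus and switches on cytokine genes together with genes for its own inhibitors, which end the response. Nfkbia encodes IκBα, the inhibitor that returns NF-κB to the cytoplasm, Tnfaip3 encodes the ubiquitin-editing enzyme A20, and Nfkbiz encodes IκBζ, a nuclear cofactor that can raise or lower target genes. In the brain, microglia are a main source of Tnf and Il1a, and they depend for survival on Csf1 and Il34, both ligands of the CSF1 receptor.

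RefSeq (GRCm38.p6) start sites were available for 8 of the 10 genes, and Il34 and Nfkbiz had no entry. The 250 bases before each start were searched on both strands for the NF-κB (kappaB) consensus of 10 bases. Of 11 windows of the 8 genes, 5 held a match, against 2382 of all 32851 windows (7.25%). Matches lay 29 bases before the start of Nfkbia, 44 before Il6, 140 before Tgfb1 and 154 before Csf1, and 125 and 12 before the first start of Tnfaip3. The windows of Tnf, Il1a and Il1rn and the second Tnfaip3 start held no match to these letters. Windows are shown for Nfkbia and Tnfaip3, whose levels stood in opposite directions between the libraries in microglia-like cells, and for Il6. Capitals mark the matches, which are a description of the letters and not of binding. The windows, each written along the gene's own strand, are chr12:55492648-55492897 (minus strand) for Nfkbia, chr10:19015411-19015660 (minus strand) for Tnfaip3 and chr5:30012864-30013113 (plus strand) for Il6.
Nfkbia: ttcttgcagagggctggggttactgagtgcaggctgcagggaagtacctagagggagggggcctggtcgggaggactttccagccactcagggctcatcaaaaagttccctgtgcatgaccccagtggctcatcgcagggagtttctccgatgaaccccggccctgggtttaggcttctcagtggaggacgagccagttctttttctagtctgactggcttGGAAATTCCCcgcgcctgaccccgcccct
Tnfaip3: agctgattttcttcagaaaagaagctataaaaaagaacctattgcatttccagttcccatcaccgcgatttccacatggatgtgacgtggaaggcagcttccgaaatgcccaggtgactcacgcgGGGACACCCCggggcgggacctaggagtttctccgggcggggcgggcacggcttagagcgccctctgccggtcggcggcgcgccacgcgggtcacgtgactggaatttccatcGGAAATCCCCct
Il6: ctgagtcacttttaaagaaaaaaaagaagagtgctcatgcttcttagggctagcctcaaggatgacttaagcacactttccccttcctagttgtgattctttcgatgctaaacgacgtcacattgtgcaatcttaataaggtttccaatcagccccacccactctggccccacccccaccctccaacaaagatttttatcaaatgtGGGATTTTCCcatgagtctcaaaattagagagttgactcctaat

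The KO library held 75473717 UMIs, the molecule tags that stand for single captured transcripts, over 9182 barcodes, and the WT library 57166105 UMIs over 7150 barcodes. After filtering, 7032 KO and 4940 WT cells remained, with median depths of 8438.5 and 8570 UMIs. The libraries shared 17 barcodes. Marker genes placed 6581 KO and 3957 WT cells in a class, and the ungated rest was 6.41% of KO cells, with a median of 2165 UMIs, and 19.9% of WT cells, with a median of 1317. Of the classes, 5 reached 100 cells in both libraries: microglia-like (273 KO and 224 WT cells), endothelial-like (253 and 153), astrocyte-like (4147 and 2139), oligodendrocyte-like (787 and 606) and neuroblast-like cells (436 and 226). T cell-like (91 and 68), B cell-like (89 and 77) and erythroid-like cells (52 and 250) were smaller. Each class shown had more of its own markers than of any other type's among its 10 leading genes. Fibroblast-like cells had 2 of their own there, Mgp and Igfbp6, and were led by Mgp, Ccn3, Igfbp6, Slc4a10 and Prg4. Their other markers, Dcn, Lum, Col1a1, Col1a2 and Col3a1, were not among those 10 genes. The targeted transcript, listed as Dipk1c, was 33.7 CPM in KO and 59.8 CPM in WT astrocyte-like cells (ratio 0.564, 0.522 to 0.609), and a 3′ readout of an unknown deletion does not check the label fully. Levels below are UMIs summed over the cells of a class, scaled to the class total as CPM.

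Tnf, Il1a and Il6 were highest in microglia-like cells in both libraries, and Tnf was less concentrated there than Il1a. Il1a, the interleukin-1 family member released by activated and dying cells, had 246 of its 261 UMIs there in the KO library (94.3%) and 192 of 221 in the WT library (86.9%). Its level in microglia-like cells was 181 CPM (159 to 205) in the KO library and 134 CPM (116 to 154) in the WT library. No other class of the 13 shown held more than 7 Il1a UMIs or stood above 1.59 CPM. Tnf, the ligand of the tumor necrosis factor receptors, had 59.4% of its KO and 50.8% of its WT UMIs in microglia-like cells. Ungated cells held 8.56% and 32.8%. The level of Tnf was 81.8 CPM (67.3 to 98.5) in KO and 62.8 CPM (50.5 to 77.2) in WT microglia-like cells. Neutrophil-like cells followed with 20.9 and 24.9 CPM, and T cell-like cells with 17.9 and 11.2 CPM, so the intervals of these classes overlapped each other. The interval of microglia-like cells lay above both in the KO library, and in the WT library it touched that of neutrophil-like cells (10.0 to 51.4). Il6, a cytokine that signals through gp130, was sparse, with 14.7 CPM (9.01 to 22.8) in KO and 24.4 CPM (17.0 to 34.0) in WT microglia-like cells. All 20 KO UMIs of Il6 came from different cells, whereas the 35 WT UMIs came from 23 cells and 1 cell held 5.

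Tnf was seen in 43 KO (15.8%) and 38 WT microglia-like cells (17.0%), and Il1a in 110 (40.3%) and 93 (41.5%), at median depths of 5358 and 7206.5 UMIs. Astrocyte-like cells, a class not known as a main source of Tnf and deeper at medians of 8870 and 11889 UMIs, held it in 0.0723% of KO and 0.374% of WT cells. In endothelial-like cells, shallower at medians of 2751 and 4264 UMIs, the shares were 0.395% and 0.654%, from 1 cell in each library. These shares serve as a background, and the source of those UMIs was not tested. Microglia-like cells with at least 2000 UMIs, 214 KO and 186 WT, were thinned to that depth and the rest left out. Among these cells Il1a was seen in 26.2% of KO (20.4 to 32.6%) and 18.3% of WT (13.0 to 24.6%), and Tnf in 9.81% and 8.06%. Of the Tnf-positive microglia-like cells, 32 KO cells (74.4%) and 23 WT cells (60.5%) also held Il1a. Both transcripts are more readily seen in deeper cells, so these shares of overlap are a description.

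**Figure D1:**
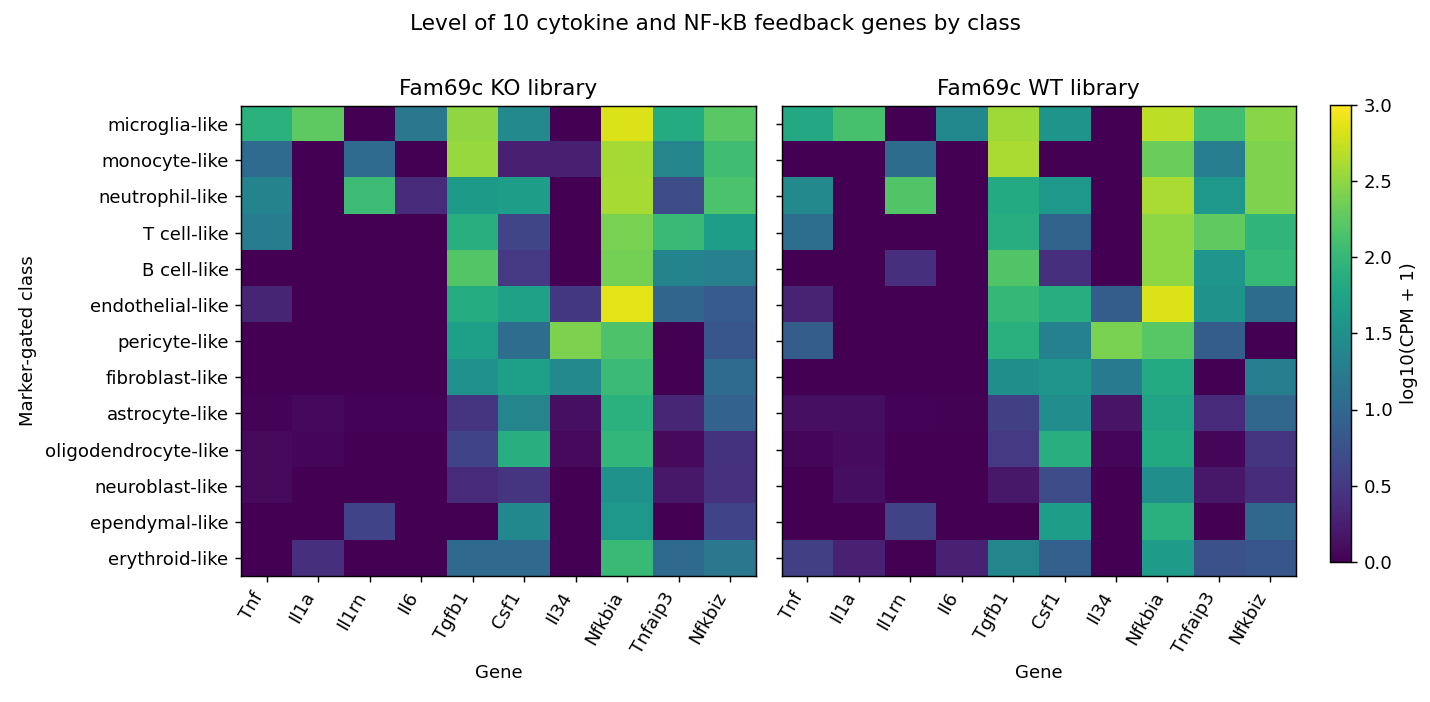
Level of each gene as log10(CPM + 1), coloured, in 13 marker-gated classes (rows) for the Fam69c KO library on the left and the Fam69c WT library on the right. Tnf, Il1a and Il6 are brightest in the microglia-like row of both panels, Il1rn in neutrophil-like cells and Il34 in pericyte-like cells.

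Il1rn, which encodes the interleukin-1 receptor antagonist, had another source from Il1a. It was highest in neutrophil-like cells, at 114 CPM (91.0 to 140) in the KO library from 112 cells and 153 CPM (111 to 206) in the WT library from 44 cells. Monocyte-like cells held 10.2 and 10.5 CPM from 12 KO and 4 WT UMIs. Microglia-like cells held 0 Il1rn UMIs in both libraries, where 3 UMIs would make 2.21 CPM in the KO and 2.09 CPM in the WT library. The ligand and its antagonist were thus counted in different classes of the same suspensions.

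Tgfb1, an anti-inflammatory cytokine on which the identity of microglia depends, was spread over the leukocyte-like classes and over endothelial- and pericyte-like cells. Monocyte-like cells held 341 CPM (308 to 376) in the KO library and 412 CPM (350 to 482) in the WT library, and microglia-like cells 319 CPM (290 to 351) and 369 CPM (339 to 402). The intervals of these classes overlapped within each library, so their order is not resolved. B cell-like cells came next with 157 and 152 CPM. T cell-like cells held 74.9 CPM in the KO and 72.1 CPM in the WT library, and endothelial-like cells 70.5 and 99.5 CPM. Pericyte-like cells held 48.0 and 80.1 CPM, neutrophil-like cells 41.8 and 67.7 CPM, and astrocyte-like cells 1.85 and 2.74 CPM. The KO to WT ratio of Tgfb1 was 0.864 (0.759 to 0.983) in microglia-like, 0.709 (0.514 to 0.973) in endothelial-like and 0.677 (0.474 to 0.967) in astrocyte-like cells. It was 1.04 in T cell-like cells and 1.03 in B cell-like cells, with intervals on both sides of 1.

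The ligands of the CSF1 receptor were highest in different non-neuronal classes, while fibroblast-like cells held both. Csf1 was highest in oligodendrocyte-like cells, with 76.2 CPM (70.9 to 81.9) in the KO library and 77.9 CPM (72.2 to 83.9) in the WT library. The ratio there was 0.979 (0.881 to 1.09), which includes no difference. Endothelial-like cells held 50.5 CPM (37.3 to 67.0) and 72.7 CPM (57.3 to 91.0), and in the WT library this overlapped the level of oligodendrocyte-like cells. Astrocyte-like cells held 22.2 CPM (20.6 to 23.8) and 28.9 CPM (26.8 to 31.2), a ratio of 0.766 (0.691 to 0.849). On the log2 scale this was -0.38 from summed UMIs and -0.20 relative to the median gene of like transcript length. In cells thinned to the same depth it was -0.12, from 188 UMIs of 3893 KO and 102 UMIs of 1946 WT cells. The size of the Csf1 difference in astrocyte-like cells was thus not resolved. As the largest class, astrocyte-like cells supplied 44.0% of all Csf1 UMIs in the KO library and 41.2% in the WT library, beside 41.4% and 40.6% from oligodendrocyte-like cells. Fibroblast-like cells held 47.9 and 36.5 CPM, neutrophil-like cells 47.0 and 39.2 CPM, and microglia-like cells 25.1 and 34.9 CPM. Its receptor gene Csf1r was at 2938 CPM in KO and 3322 CPM in WT microglia-like cells.

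Il34 was highest in pericyte-like cells, with fibroblast-like cells next. Pericyte-like cells held 256 CPM (189 to 339, 48 UMIs from 60 cells) in the KO library and 247 CPM (174 to 340, 37 UMIs from 31 cells) in the WT library. Fibroblast-like cells held 24.7 CPM (16.9 to 34.9) and 15.8 CPM (8.42 to 27.0), below pericyte-like cells beyond the counting error. Astrocyte-like cells, the largest class, held 12 KO and 11 WT UMIs, or 10.5% and 12.8% of all Il34 UMIs, at 0.337 and 0.456 CPM. Endothelial-like cells held 2 KO and 7 WT UMIs, beside summed levels of the 7 pericyte markers of 422 CPM in KO and 1860 CPM in WT endothelial-like cells. The part of pericyte RNA in those UMIs was not tested. Microglia-like cells, which carry the receptor, held 0 Il34 UMIs in both libraries. Neurons are a known source of Il34 in the brain, and 2 cells in each library passed the neuron gate, so neuronal Il34 was not measurable in these suspensions.

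**Figure D2:**
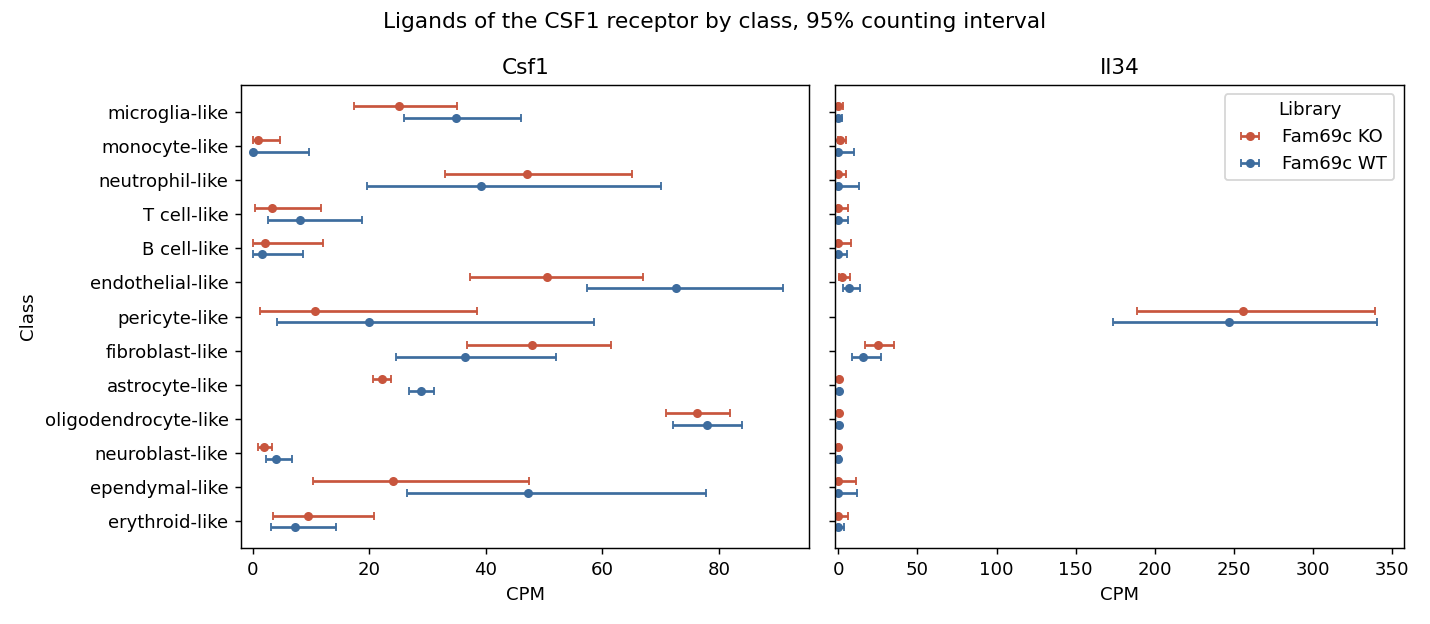
Csf1 (left) and Il34 (right) in CPM with exact Poisson 95% counting intervals for 13 classes, red for the Fam69c KO and blue for the Fam69c WT library. Csf1 is spread over oligodendrocyte-, endothelial-, fibroblast-, neutrophil- and astrocyte-like cells, while Il34 stands at 256 CPM (KO) and 247 CPM (WT) in pericyte-like cells and is low in the rest.

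Set between the libraries, the cytokines and the feedback genes of microglia-like cells did not move together. A gene was counted as higher or lower when the libraries differed by at least 1.5-fold and at least 50 UMIs were present over both. Of the 10 genes 8 reached that number in microglia-like cells, with 0 higher in the KO library and 3 lower, against a background of 6.32% of all 7115 measured genes higher and 7.72% lower. The 3 lower genes were Il6, Tnfaip3 and Nfkbiz. Tnfaip3 was 68.6 CPM (55.3 to 84.0) in the KO library and 121 CPM (104 to 141) in the WT library, a log2 ratio of -0.83 (-1.20 to -0.45). Nfkbiz was 170 CPM (148 to 193) and 294 CPM (267 to 323), a log2 ratio of -0.79 (-1.03 to -0.56). Neither gene's intervals overlapped between the libraries. The Il6 difference lay within counting error (log2 -0.73, -1.60 to 0.10).

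Nfkbia, the other feedback inhibitor, lay on the opposite side. It was 686 CPM (642 to 731) in KO and 498 CPM (462 to 536) in WT microglia-like cells, a ratio of 1.38 (1.25 to 1.52), with intervals that did not overlap. Il1a had a ratio of 1.35 (1.12 to 1.64) and Tnf of 1.30 (0.977 to 1.74), so that of Tnf was within counting error. Csf1 had a ratio of 0.718 (0.450 to 1.13). With each cell weighed the same, the log2 ratio of Csf1 turned to 0.25, against -0.48 for summed UMIs. The differences of Tnf, Il6 and Csf1 were not detectable at this depth.

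**Figure D3:**
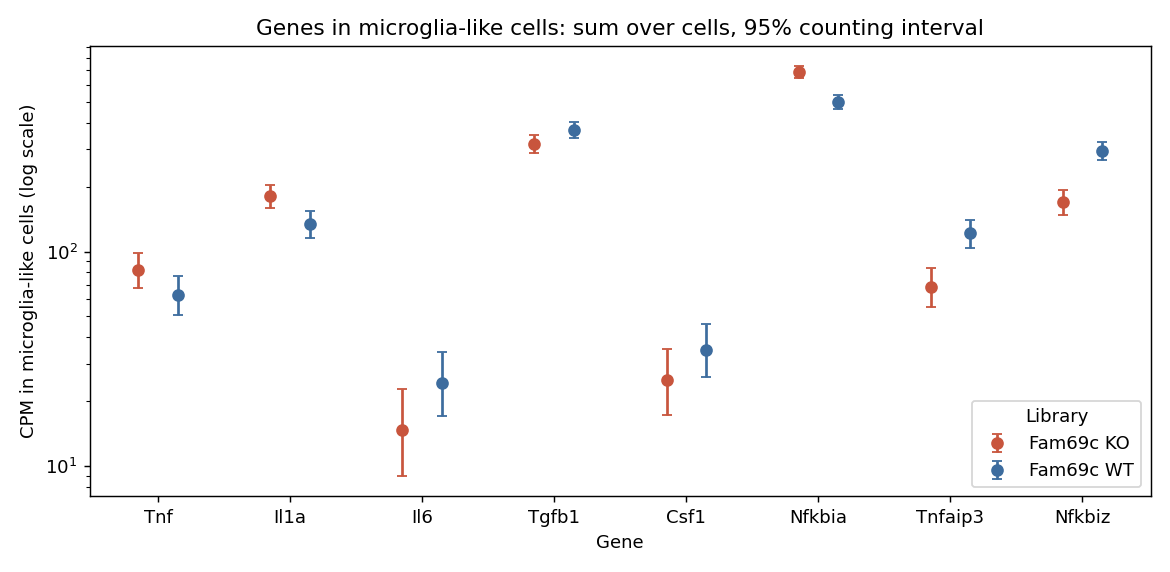
CPM (log scale) of 8 genes in microglia-like cells with exact Poisson 95% counting intervals, red for the Fam69c KO library and blue for the Fam69c WT library to its right. Nfkbia and Il1a are higher in the KO library and Tnfaip3 and Nfkbiz lower, while the intervals of Tnf, Il6, Tgfb1 and Csf1 overlap.

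Transcript length moved with these ratios. Over all measured genes of microglia-like cells, the median log2 ratio was 0.29 in the first of 10 equal groups, with the shortest transcripts, and -0.29 in the last, with the longest. The longest annotated transcripts of Nfkbia, Tnf and Il1a are 1578, 1639 and 1974 bases, and those of Nfkbiz and Tnfaip3 are 4115 and 6199 bases. Relative to the median gene of their own length group, Tnfaip3 stood at -0.62 and Nfkbiz at -0.69 on the log2 scale, which is still past 1.5-fold. On that scale Nfkbia stood at 0.26, Il1a at 0.30 and Tnf at 0.18. Thinning to 2000 UMIs left 26 Tnfaip3 UMIs from 214 KO cells and 22 from 186 WT cells, a log2 ratio of 0.039, so the difference in Tnfaip3 was lost there, while Nfkbiz kept its direction with 56 and 101 UMIs.

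Other RNA in the class also differed between the libraries. The 8 astrocyte markers were all seen in both libraries and summed to 818 CPM in KO and 485 CPM in WT microglia-like cells, and the 6 erythroid markers to 1944 and 2648 CPM, with Slc4a1 at 0 in both. Tnf and Il1a in astrocyte-like cells themselves were at 0.332 CPM or less, Tnfaip3 at 1.33 CPM or less and Nfkbiz at 8.79 CPM or less. Nfkbia was at 81.6 CPM in KO and 56.0 CPM in WT astrocyte-like cells, and Csf1 at 22.2 and 28.9 CPM. The part of astrocyte and erythroid RNA in the ratios of microglia-like cells was not tested. The 12 immediate early and stress genes, which tissue dissociation is known to induce, summed to 18675 CPM in KO and 22171 CPM in WT microglia-like cells. Of these 12 genes 0 were higher and 2 lower, Fosb at 128 and 230 CPM and Atf3 at 719 and 1126 CPM, beside 6.32% of all genes higher and 7.72% lower. The median log2 ratio of the list was -0.29 beside -0.01 over all genes, without matching for transcript length. The part of that response in the ratios of the feedback genes was not tested.

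The 3 feedback genes each had their own order of classes. Nfkbia was highest in endothelial-like cells, at 758 CPM (704 to 815) in the KO library and 696 CPM (647 to 749) in the WT library, followed by microglia-like cells, which overlapped in the KO library alone. Neutrophil-like cells held 405 and 410 CPM, while neuroblast-like cells held 33.9 and 29.9 CPM. Tnfaip3 was highest in T cell-like cells, at 104 CPM (80.3 to 133) and 183 CPM (151 to 219), with microglia-like cells next, and the KO intervals of these classes overlapped. Nfkbiz was highest in microglia-like cells, followed in the KO library by neutrophil-like cells at 142 CPM (117 to 172) and monocyte-like cells at 119 CPM (100 to 140), of which the first overlapped microglia-like cells. In the WT library these classes held 260 CPM (204 to 327) and 262 CPM (213 to 319), so that neither could be told apart from microglia-like cells.

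Counted from summed UMIs, Nfkbia was higher in the KO library in 3 of the 5 large classes, by less than 1.5-fold and beyond counting error. In astrocyte-like cells it was 81.6 CPM (78.7 to 84.6) in the KO library and 56.0 CPM (53.0 to 59.0) in the WT library, a ratio of 1.46 (1.37 to 1.56). In oligodendrocyte-like cells it was 94.9 CPM (88.9 to 101) and 66.0 CPM (60.8 to 71.6), a ratio of 1.44 (1.30 to 1.60). The ratio was 1.09 (0.981 to 1.21) in endothelial-like and 1.13 (0.886 to 1.45) in neuroblast-like cells. B cell-like cells went the other way, with 232 CPM in the KO library and 310 CPM in the WT library (ratio 0.75, 0.588 to 0.953). T cell-like cells had 249 and 308 CPM, a ratio of 0.810 (0.651 to 1.01). Under other processing choices the T cell-like log2 ratio ranged from -0.42 to 0.39, so its direction was not resolved. Relative to genes of the same transcript length, the log2 ratios were 0.30 in astrocyte-like, 0.39 in oligodendrocyte-like and -0.58 in B cell-like cells.

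From summed UMIs, Nfkbiz was lower in the KO library in B cell- and T cell-like cells as well. In B cell-like cells it had 9 UMIs in the KO library (19.4 CPM, 8.85 to 36.7) and 66 UMIs in the WT library (101 CPM, 78.2 to 129), a log2 ratio of -2.39 (-3.58 to -1.37). This was the 1 gene called of 3 measured there, against a background of 4.44% of genes higher and 17.3% lower. In T cell-like cells 4 genes were measured, 0 higher and 2 lower, against 4.94% of genes higher and 12.7% lower. These were Nfkbiz, with 47.2 CPM (31.6 to 67.8) in the KO library and 91.3 CPM (69.2 to 118) in the WT library, and Tnfaip3, with 104 and 183 CPM (log2 -0.81, -1.27 to -0.36). The Tnfaip3 log2 ratio was -0.54 relative to genes of its length, short of 1.5-fold. The T cell-like Nfkbiz difference was -0.03 on the log2 scale with classes from clusters, and turned to 1.01 in cells thinned to 2000 UMIs, from 14 KO and 5 WT UMIs. The direction of Nfkbiz in T cell-like cells was thus not resolved. The immediate early genes summed to 2646 CPM in KO and 4541 CPM in WT B cell-like cells, where 7 of 9 measured were lower, and to 2409 and 3192 CPM in T cell-like cells.

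The remaining classes had few measured genes or few cells. In astrocyte-like cells 5 genes were measured with 0 higher and 0 lower (background 3.46% and 8.92%), and Nfkbiz was 7.88 CPM in the KO library and 8.79 CPM in the WT library (ratio 0.897, 0.748 to 1.08). In endothelial-like cells 3 genes were measured with 0 higher and 0 lower (6.08% and 7.04%), in oligodendrocyte-like cells 2 with 0 and 0 (3.42% and 5.13%) and in neuroblast-like cells 1 with 0 and 0 (2.17% and 10.7%). Tnfaip3 in endothelial-like cells was below the count minimum, with 8 UMIs in the KO library (8.42 CPM, 3.64 to 16.6) and 34 in the WT library (32.5 CPM, 22.5 to 45.4). Erythroid-like cells had 1 measured gene, Nfkbia, higher at 105 CPM in the KO library and 44.3 CPM in the WT library (background 17.4% higher and 16.8% lower). Their median depth was 8916.5 UMIs in the KO and 1105 UMIs in the WT library, and without a filter on cells the log2 ratio turned to -0.11. In the smaller monocyte-like class, of 90 KO and 27 WT cells, Nfkbia was 398 CPM (363 to 436) and 212 CPM (169 to 264), and Nfkbiz 119 CPM and 262 CPM. In neutrophil-like cells Nfkbia was 405 CPM (361 to 452) and 410 CPM (338 to 492), and Nfkbiz 142 and 260 CPM. That class had 112 KO and 44 WT cells, with median mitochondrial shares of 0.643% and 4.81%. No share over all genes was counted for monocyte- or neutrophil-like cells, so these differences have no background.

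**Figure D4:**
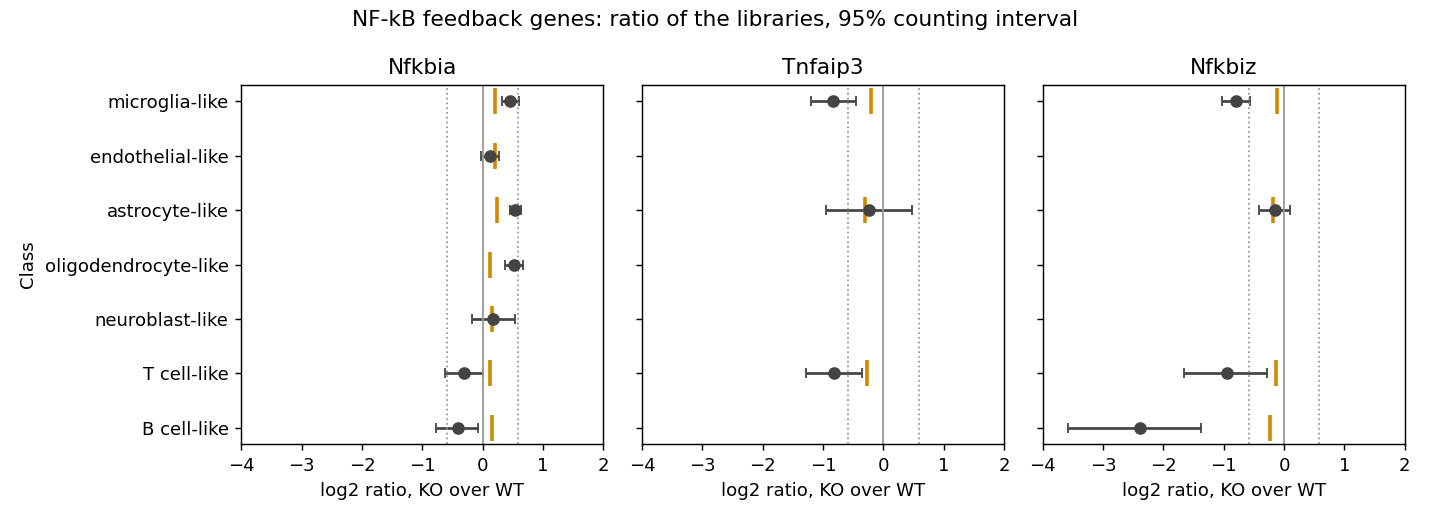
Log2 ratio of the Fam69c KO over the Fam69c WT library for Nfkbia, Tnfaip3 and Nfkbiz in the classes where each was measured, with exact 95% counting intervals, dotted lines at 1.5-fold and an orange tick at the median of genes of the same transcript length. Nfkbia lies above 0 in microglia-, astrocyte- and oligodendrocyte-like cells and below 0 in B cell-like cells, and the points of Nfkbiz lie beyond the lower dotted line in microglia-, T cell- and B cell-like cells.

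Within microglia-like cells Tnf, Nfkbia and Nfkbiz were higher, in both libraries, in cells with the chemokines Ccl3 and Ccl4, which NF-κB is known to induce. The median summed level of these chemokines was 0, so the cells divide into those with and those without their UMIs, 87 and 186 in the KO library and 94 and 130 in the WT library. Cells with them were deeper, at medians of 6367 against 4916 UMIs in the KO and 7975 against 6033 UMIs in the WT library. Tnf was 156 CPM in cells with them against 34.0 CPM in cells without in the KO library (ratio 4.58, 2.95 to 7.31), and 91.9 against 34.5 CPM in the WT library (ratio 2.67, 1.66 to 4.42). Nfkbia was 1064 against 441 CPM in the KO library and 670 against 330 CPM in the WT library, with ratios of 2.41 and 2.03. Nfkbiz had ratios of 1.91 and 1.58. Csf1 had ratios of 1.74 (0.837 to 3.65) in the KO library, within counting error, and 4.10 (2.02 to 9.20) in the WT library. These 4 genes were at least 1.5-fold higher in both libraries in cells with the chemokines, of 8 with at least 50 UMIs, against a background of 1.25% of 7113 genes. With the division at the upper quartile of the chemokine level instead, 3 genes remained, since the KO ratio of Csf1 was 1.26 (0.536 to 2.73). The share over all genes was not counted at that division, so the background above does not apply to it.

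Il1a and Tnfaip3 had intervals above 1 in the KO library and intervals that included 1 in the WT library. Il1a was 257 CPM in cells with Ccl3 or Ccl4 against 132 CPM in cells without in the KO library (ratio 1.94, 1.5 to 2.52), and 139 against 130 CPM in the WT library (1.07, 0.797 to 1.43). Tnfaip3 had a ratio of 1.80 (1.17 to 2.77) in the KO library and 1.05 (0.771 to 1.43) in the WT library. At the upper quartile Il1a had ratios of 1.62 (1.23 to 2.12) and 1.33 (0.982 to 1.79), with overlapping intervals, and Tnfaip3 of 2.71 (1.76 to 4.15) and 0.966 (0.691 to 1.34). The difference between the libraries was not tested. Tgfb1 had ratios of 1.20 (0.985 to 1.45) and 0.912 (0.766 to 1.09), on either side of 1 and within counting error. Cells with the chemokines form a range of their level and not a cell type.

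**Figure D5:**
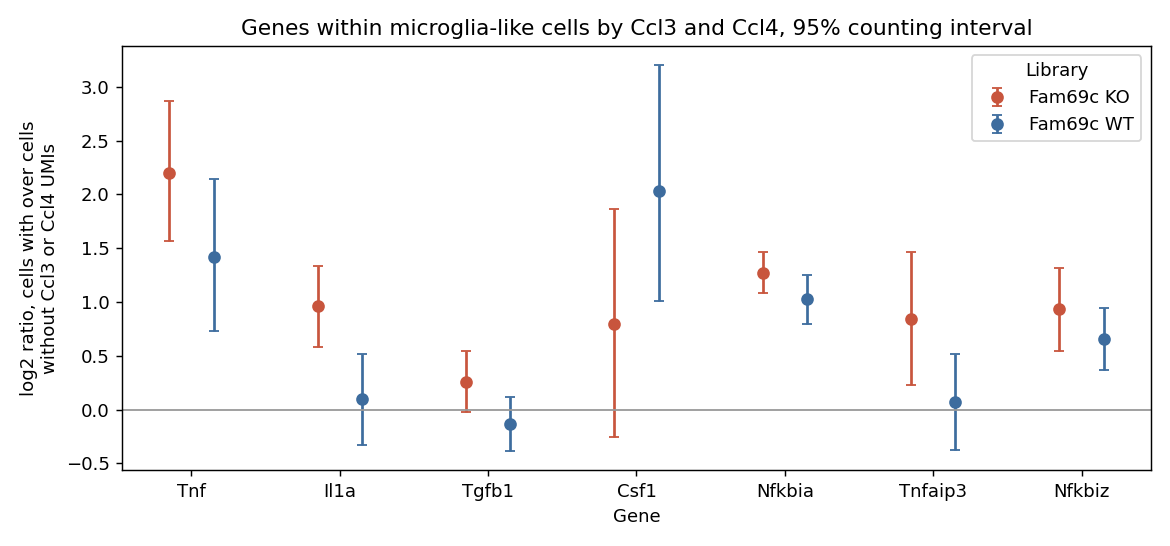
Log2 ratio of microglia-like cells with Ccl3 or Ccl4 UMIs over those without, for 7 genes, with exact 95% counting intervals, red for the Fam69c KO library and blue for the Fam69c WT library to its right. Tnf, Nfkbia and Nfkbiz lie above 0 in both libraries, and Il1a and Tnfaip3 lie above 0 in the KO library with WT intervals that include 0.

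The other genes of the pathway were counted in microglia-like cells from lists, beside the same background of 6.32% higher and 7.72% lower. Of 7 measured cytokine receptor genes, 0 were higher and 0 lower, and Il6st, which encodes the gp130 subunit, was 114 CPM in the KO library and 165 CPM in the WT library. Of 16 measured subunit and kinase genes, 1 was higher and 1 lower. The lower gene was Nfkb1, which encodes the p105 precursor of the p50 subunit, with 110 CPM in the KO library and 172 CPM in the WT library (ratio 0.639, 0.518 to 0.787). The higher gene was Irak4, a kinase of the interleukin-1 receptor pathway, with 42.8 and 24.4 CPM. Of 12 measured inhibitors outside the 10 genes, 0 were higher and 1 lower, Nfkbid at 52.3 and 82.4 CPM. The log2 ratio of 10 of these 12 was below 0. Their median was -0.42 beside -0.01 over all genes, which were not matched for transcript length. Among the 12, Cyld, a deubiquitinase, was 84.8 CPM in the KO library and 122 CPM in the WT library. Of 7 measured NF-κB targets, 1 was higher and 0 lower, the chemokine gene Ccl2 at 89.9 and 25.1 CPM (ratio 3.58, 2.45 to 5.34).

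In endothelial-like cells the receptor and target genes showed both directions, beside the background of 6.08% of all genes higher and 7.04% lower. Of 6 measured receptor genes, 2 were higher and 0 lower, Il1r1 at 70.5 CPM in the KO and 37.3 CPM in the WT library and Il6ra at 100.0 and 55.5 CPM. Of 6 measured targets, 1 was higher and 2 lower. Ier3, an immediate early survival gene, was 499 CPM in the KO library and 254 CPM in the WT library. The adhesion molecule genes Icam1, at 30.5 and 90.9 CPM, and Vcam1, at 77.9 and 207 CPM, were the lower ones. The immediate early genes summed to 1794 and 2441 CPM there, and the 6 erythroid markers to 2988 and 14198 CPM. The 7 pericyte markers, all seen in both libraries, summed to 422 and 1860 CPM, and the 7 neutrophil markers, with Ly6g and Cxcr2 at 0 in both, to 178 and 36.3 CPM. Their part in these ratios was not tested.

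The genes whose levels were most like each of the 10 were ranked by the Pearson correlation of log2(CPM + 1) over 16 points, 8 classes in each of 2 libraries, among 13580 genes. Points of 1 library share its depth and stray RNA, so the correlations are descriptions. For 7 of the 10 genes enough UMIs were present. Osm, which encodes oncostatin M, was most like Tnf (r = 0.96), and Gpr84, a fatty acid receptor gene, was most like Il1a (r = 0.99). Rcsd1 was most like Tgfb1 (r = 0.98), Htra3 most like Csf1 (r = 0.93) and Parp10 most like Nfkbia (r = 0.94). Inpp4b was most like Tnfaip3 (r = 0.97) and Sh3bp1 most like Nfkbiz (r = 0.95).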

How the data were processed

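Single-cell RNA sequencing was analysed for 2 libraries, 1 per genotype, of pooled mouse cortex. The deposited values are raw UMI counts per gene and barcode with no normalization, and per the file headers they come from Cell Ranger 4.0.0. The submitters' processing notes list R 4.0.3, Seurat 3.0 and mm10, with no annotation release. Transcript lengths came from GENCODE M21 (GRCm38), matched by gene identifier for 99.8% of genes, and promoter windows from RefSeq.

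Kept barcodes, 7480 KO and 5152 WT, had 500 genes or more and no more than 20% mitochondrial UMIs. Scrublet (scanpy 1.11.5) marked 4 KO and 0 WT cells by its automatic threshold, which was taken as failed. The highest-scoring cells were removed instead at 0.8% per 1000 kept cells, 448 KO and 212 WT, a rate chosen after the automatic calls were seen. Each cell was scored on markers of 18 cell types. Each marker's log(1 + UMIs per 10000) was divided by its 90th percentile among cells holding it and capped at 1. A cell was gated when at least 3 own markers were seen and their mean led the next type by at least 0.15. This scoring was set after cell numbers and the levels of the 10 genes under a simpler gate had been seen. The genes, lists and tests were chosen with earlier results of these data known. All 10 genes were named; of each other list, the 3 most abundant and the 4 with the largest ratios could be named, and the immediate early list was treated alike.

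For each class and library the UMIs of its cells were added up and divided by the class total to give CPM with an exact Poisson 95% interval. KO over WT ratios have exact conditional binomial intervals and no pseudocount, and Clopper-Pearson (exact) intervals were used for shares of cells. Beside a count of 0 stands the level that 3 UMIs make. Called genes differed by at least 1.5-fold with at least 50 UMIs. No p-value was computed. The ratio step was checked on simulated counts. The alternatives are no filter, a stricter filter, doublets kept, a stricter gate, Leiden clusters (leidenalg 0.10.2), equal weight per cell, thinning to 2000 UMIs and the median gene as reference. Thinning left out cells below 2000 UMIs. A gate on markers seen and the median of genes of like transcript length were added after seeing the data. The software was pandas 2.3.3, scipy 1.17.1, matplotlib 3.10.9, numpy 2.4.6 and Python 3.11.15.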

Additional observations from a re-analysis of the deposited data

Results flagged for a closer look

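Nfkbia differed in direction between classes, with counting intervals of the KO over WT log2 ratio above 0 in some and below 0 in another. The log2 ratio was 0.46 in microglia-like, 0.54 in astrocyte-like and 0.52 in oligodendrocyte-like cells, against -0.41 in B cell-like cells. The difference between classes was not tested, since each genotype is 1 library.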

How the results depend on the processing

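No paired analysis was possible because each genotype is 1 library and no test was made. In microglia-like cells 3 genes were lower in each alternative but the stricter filter, which gave 4, although with thinning Tnfaip3 was not among them; 1 gene in place of 0 was higher with a stricter gate, thinned cells or the gate on markers seen. The log2 ratio of Nfkbiz there ranged from -1.05 to -0.69, of Nfkbia from 0.26 to 0.71, of Il1a from 0.30 to 0.56 and of Tnfaip3 from -1.04 to 0.039, its direction turned by thinning. In endothelial-like cells 0 lower genes became 2 with the stricter filter or thinning and 1 with the stricter gate, clusters or the gate on markers seen. In astrocyte-like cells 0 higher became 1 with thinning or the median gene as reference, and 0 lower became 2 with equal weight per cell and 1 with the stricter filter, doublets kept, thinning or the gate on markers seen. In oligodendrocyte-like cells 0 higher became 1 with doublets kept. In T cell-like cells 0 higher became 2 and 2 lower became 0 with thinning, where Nfkbiz turned to 1.01, and 2 lower became 1 with clusters or relative to transcript length. In erythroid-like cells 1 higher became 0 with no filter (Nfkbia log2 -0.11) and with clusters (-0.70), where 1 was lower in place of 0. Genes of the 5 lists, immediate early and stress genes included, that were at least 1.5-fold apart with a minimum of 50 UMIs numbered 6 in microglia-like, 11 in endothelial-like, 7 in astrocyte-like, 7 in oligodendrocyte-like and 1 in neuroblast-like cells. A minimum of 200 UMIs gave 3, 2, 4 and 3 in the first 4 classes, and a minimum of 20 gave 17 in endothelial-like, 11 in oligodendrocyte-like and 5 in neuroblast-like cells. At 50 UMIs, 6.32% of all genes were higher and 7.72% lower in microglia-like cells, and 6.08% and 7.04% in endothelial-like cells. These shares were 3.46% and 8.92% in astrocyte-like, 3.42% and 5.13% in oligodendrocyte-like and 2.17% and 10.7% in neuroblast-like cells. The counts at 200 and 20 UMIs have no such share beside them and are a description. The division of microglia-like cells at the upper quartile of Ccl3 and Ccl4 gave 3 genes in place of 4, without a share over all genes at that division. The cause of these changes was not tested. Thinned values are a single random draw and rest on few UMIs. With classes from clusters, 19 of 20 pairs of gene and library had the same highest class, and Nfkbiz in the WT library was highest in monocyte-like cells instead.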

Other observations

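Cells that no marker gate took held part of the Tnf transcripts, with 16 of 187 Tnf UMIs in the KO library (8.56%, 5.43 CPM over 451 cells) and 58 of 177 in the WT library (32.8%, 15.3 CPM over 983 cells). The same cells held 2.68% of the Il1a UMIs in the KO library and 8.14% in the WT library. Over all cells, gated or not, Tnfaip3 was 5.13 CPM in the KO library and 10.7 CPM in the WT library, Nfkbiz 17.2 and 27.5 CPM, and Nfkbia 126 and 106 CPM. Such levels depend on the mix of classes, which differed between the libraries. Astrocyte-like cells, where Tnfaip3 was 1.12 and 1.33 CPM, made up 4147 of 7032 KO and 2139 of 4940 WT cells. The part of the mix in these levels was not tested.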
